A study of Mus musculus with 4 samples.

Results

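Heat shock proteins and their co-chaperones were examined in keratinocytes (KCs), the cells that build the epidermis, from WT and Nfat5-/- mice. The members were taken by gene symbol: the HSP70, HSP110, HSP60, HSP10 and small heat shock proteins (Hspa, Hsph, Hspd, Hspe and Hspb), the heat shock factors (Hsf), the J proteins (Dnaja, Dnajb and Dnajc), the cytosolic chaperonin subunits (Cct) and the BAG proteins. Hspa1a, Hspa1b and Hspa4l match these symbols and were left out by the rule. This gave 86 of the 25814 listed genes, of which 55 act in the cytosol or nucleus, 12 in the endoplasmic reticulum (ER) and 8 in mitochondria, while 11 act elsewhere or were not placed. Cct6a, a further chaperonin subunit, was not analysed here.

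All 4 libraries were poly(A) RNA-seq of untreated primary KCs from the tails of adult 129/sv mice, grown without serum at low calcium. There were 2 WT and 2 Nfat5-/- libraries, where Nfat5-/- stands for mice without NFAT5, a transcription factor that responds to osmotic stress. The study's methods call the WT animals siblings and state that tails were sent overnight on ice before the cells were prepared, and the labels give neither the sex of the animals nor the time in culture. The series names 2 independent experiments per genotype and the study's text speaks of 2 WT and Nfat5-/- sibling mice, but no label ties a library to an animal, so the p-values measure the spread between these libraries.

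Chaperones keep other proteins folded. An HSP70 protein binds an unfolded stretch of a client, a J protein brings the client and starts the ATP cycle of HSP70, and a nucleotide exchange factor (HSP110 or BAG) resets it. Each compartment has its own HSP70: HSPA8 in the cytosol, HSPA5 (BiP) in the ER and HSPA9 (mortalin) in the mitochondrial matrix. Small heat shock proteins hold unfolded clients without ATP, and the CCT ring and the HSP60/HSP10 chamber fold clients inside a cavity. Heat shock factors bind heat shock elements (HSEs), repeats of the unit GAA in alternating orientation, and the unfolded protein response of the ER acts through the ER stress element (ERSE). In the epidermis HSPB1 is known as an abundant small heat shock protein.

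The targeted gene was looked up first. Nfat5 (chromosome 8, 107293470 to 107379517, GRCm38) had 374 and 894 exon reads in WT and 654 and 714 in Nfat5-/- KCs, a difference of 0.04 on the log2 scale (SE 0.27, adjusted p = 0.959 in edgeR). Totals per gene hold no information on single exons, so they do not check the labels, and each direction given here rests on the labels. The study reports a western blot in which KCs from Nfat5-/- mice lacked NFAT5, but no label ties that blot to these libraries. The KC keratins Krt5 (4990 and 5073 RPKM in WT, 5285 and 5775 in Nfat5-/-) and Krt14 (6985 and 5354 in WT, 5148 and 6046 in Nfat5-/-) were high in each library, and 0 of 9 KC markers tested passed the threshold. RPKM gives exon reads relative to exon length and library size. Exon reads per library ranged from 15899630 to 23059639, and 86.8% to 87.3% of them were placed at a single site. Of the markers of other cell types, 3 smooth muscle genes passed the threshold as higher in Nfat5-/- KCs (Acta2, Tagln and Cnn1, of 4 tested), and the summed RPKM of the 5 listed genes was 183.9 and 150.9 in WT against 517.9 and 819.0. In the same list Myh11 was at a low level, 0.00913 and 0 RPKM in WT against 0.12 and 0.294 in Nfat5-/- KCs. It was higher without overlap but did not pass (log2 fold change 5.41, SE 1.02, edgeR adjusted p = 0.0516). Des was at 0 in 3 libraries. The skeletal muscle list gave Acta1 an adjusted p of 0.0893 with 23.6% of its reads unique, and 3 of its 6 genes had no read. Of 7 suprabasal KC markers, Krtdap passed as higher, 6 had log2 fold changes above 0 (5 of them without overlap) and the median was 0.97, with a summed level of 64.9 and 31.1 RPKM in WT against 61.3 and 94.8. Of 3 melanocyte markers tested, Tyrp1 passed as lower and all had log2 fold changes between -2.04 and -1.46, with a summed level over the 5 listed genes of 7.29 and 6.99 RPKM in WT against 2.04 and 2.89. Of the lists of fibroblast, immune, endothelial and Schwann cell markers, each on its own summed to at most 3.73 RPKM in any library.

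The promoters of members that carry an HSE or an ERSE are shown next, because these are the elements through which the heat shock and ER stress responses act on chaperone genes. RefSeq promoters (GRCm38.p6, 250 bases before to 50 after a start site) were matched by symbol for 70 of the 86 members, which gave 90 promoters, some of them overlapping alternatives of 1 gene. The searched letters were TTCNNGAA and GAANNTTC (an HSE pair, which reads the same on both strands), TTCNNGAANNTTC on either strand (an HSE triple, which contains both pairs), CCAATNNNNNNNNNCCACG on either strand (ERSE) and, on either strand, the tonicity element TonE, the site that NFAT5 is known to bind. An HSE triple lay in 6.67% of the members' promoters and in 0.603% of all 32851, an HSE pair in 23.3% against 15.1%, an ERSE in 2.22% against 0.119% and TonE in 11.1% against 4.96%. These are matches of letters, not measured binding. Each stretch below is written from 5′ to 3′ on the strand of its gene, with the matched letters in capitals.
The mitochondrial chaperonin pair Hspd1 and Hspe1 lies head to head on chromosome 1 and holds 1 block of HSE units upstream of a start site of each gene, read here from both strands (chr1:55088053-55088082, minus for Hspd1 and plus for Hspe1).
Hspd1: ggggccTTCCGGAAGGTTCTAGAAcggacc
Hspe1: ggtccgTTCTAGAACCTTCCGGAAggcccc
The HSE triples of Hsph1 (chr5:149636286-149636315, minus) and Dnajb6 (chr5:29735843-29735872, plus) are the others found.
Hsph1: gtaaaatgctgcagaTTCTGGAAAGTTCtc
Dnajb6: cagctccgaGAATCTTCCGGAAcgctagac
HSE pairs are shown for Hspb1 (chr5:135887769-135887918, plus), the member of highest level. They are also shown for 3 members whose values were higher in both Nfat5-/- libraries, Dnajb4 (chr3:152193841-152193870, minus), Bag3 (chr7:128523603-128523632, plus) and Hspb8 (chr5:116422844-116422873, minus). These were picked by level and direction from 19 members with an HSE pair. Of those not shown, Cct2, Cct5, Dnaja1, Dnaja4 and Dnajc10, for example, overlapped between genotypes.
Hspb1: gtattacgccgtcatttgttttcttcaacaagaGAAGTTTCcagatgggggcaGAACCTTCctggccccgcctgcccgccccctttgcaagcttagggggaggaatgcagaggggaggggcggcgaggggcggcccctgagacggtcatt
Dnajb4: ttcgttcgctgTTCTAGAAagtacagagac
Bag3: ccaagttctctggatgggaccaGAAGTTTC
Hspb8: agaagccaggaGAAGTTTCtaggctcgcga
The ERSE was found in Hspa5 (chr2:34772020-34772049, plus) and in its ER co-chaperone Dnajc3 (chr14:118937782-118937931, plus).
Hspa5: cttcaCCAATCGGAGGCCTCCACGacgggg
Dnajc3: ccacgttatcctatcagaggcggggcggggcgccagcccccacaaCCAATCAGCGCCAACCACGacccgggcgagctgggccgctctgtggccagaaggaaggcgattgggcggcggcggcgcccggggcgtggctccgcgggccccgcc
Hspa2 (chr12:76404340-76404369, plus) had the TonE letters, here on its opposite strand, starting 20 bases before the start site.
Hspa2: gattggctctGAGAGTTTCCAgcaggcagg
TonE letters also lay in the promoters of Bag1, Bag6, Dnajb2, Dnajb9, Hspb1, Hspd1, Hspe1 and Hsph1. In Hspb1 and Hsph1 they overlapped the HSE letters. Hspa2, the member shown for TonE, had the highest log2 fold change (0.45) of the 9 members with these letters, whose median was 0.03.

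No member passed the threshold. Differences between genotypes were tested with edgeR on the total exon reads, and p-values were adjusted over all 12111 genes with enough reads. Of the 71 members tested, 0 had an adjusted p under 0.05, against 1.44% of all tested genes. At an unadjusted p under 0.05 there were 6 members: Hspa5 and Hspa9 had lower values in Nfat5-/- KCs (6.46% of all tested genes did so) and Dnajb4, Hspa2, Bag3 and Hsf2bp had higher values (8.28% did so). DESeq2 on the same reads called Hspa5 alone, out of 74 members with an adjusted p, against 3.15% of all genes with one. The log2 fold change is that of Nfat5-/- over WT, and its median over the members was 0.02, beside -0.01 over all tested genes. For 64 of the 71 members the 95% interval of the log2 fold change stayed within 1 either way, that is, within a 2-fold difference, and this held for 80.7% of all tested genes. The 15 members that were not tested had at most 10 exon reads in any library, and 4 of them, Cct8l1, Dnajb8, Dnajc5g and Hspb3, had none.

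**Figure D1:**
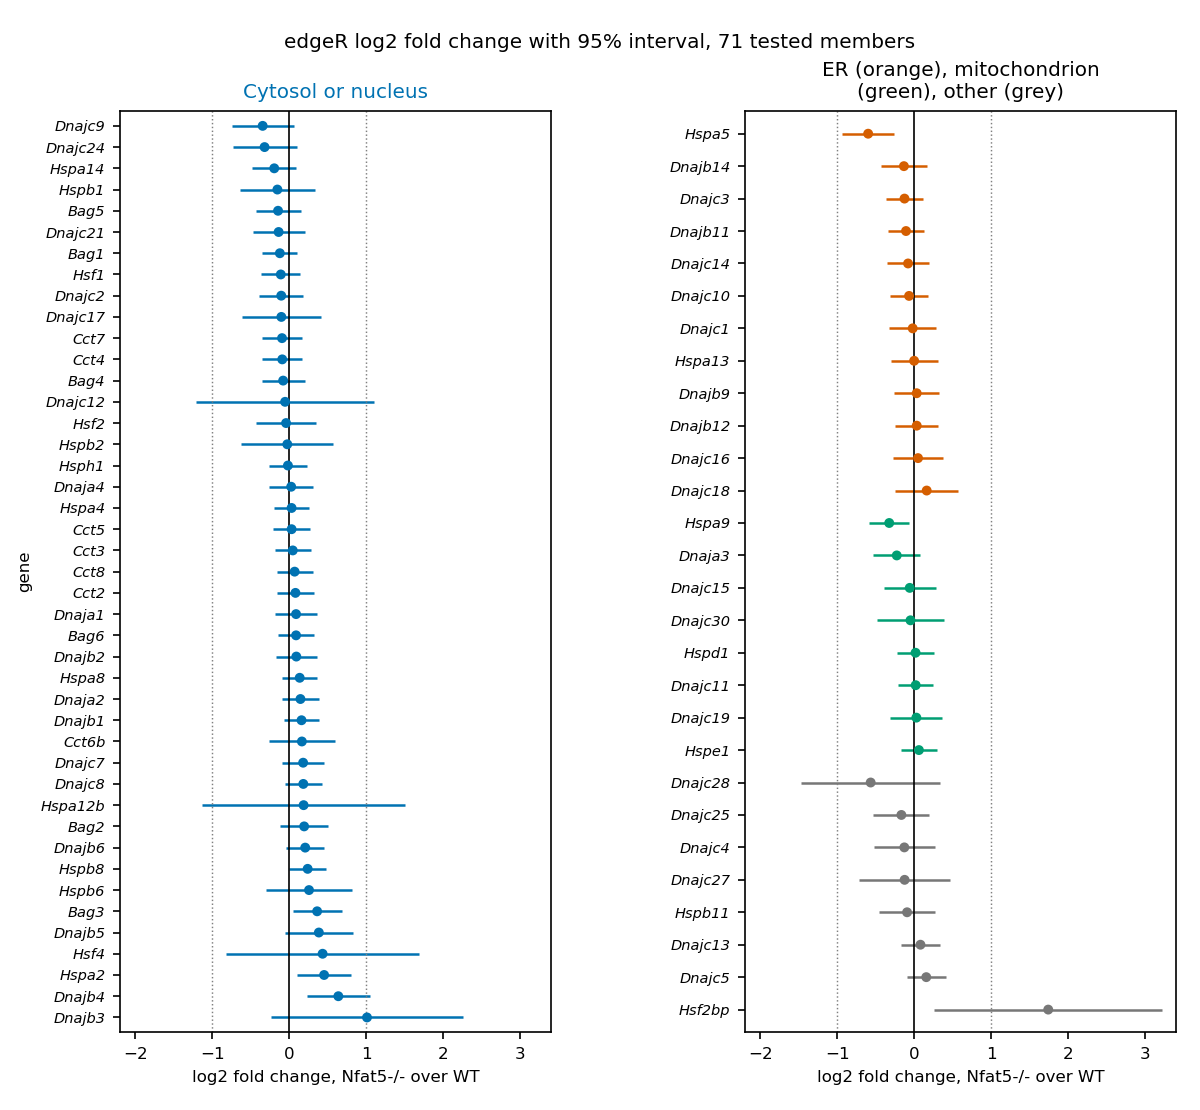
Log2 fold change of Nfat5-/- over WT (x axis) for each of the 71 tested members (y axis), with its 95% interval from edgeR as a bar; dotted lines mark a 2-fold difference. Most points lie close to 0, Hspa5 and Hspa9 have intervals below 0, and Dnajb4, Bag3, Hspa2 and Hsf2bp have intervals above 0 before adjustment.

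In each compartment the median log2 fold change lay close to 0. The median log2 fold change was 0.07 over 43 tested cytosolic and nuclear members (26 values above 0 and 17 below), -0.04 over 12 ER members (4 above and 8 below) and -0.02 over 8 mitochondrial members (4 above and 4 below). The RPKM of both Nfat5-/- libraries lay above both WT libraries in 15 cytosolic members and below them in 8, where all tested genes did so in 21.8% and 25.6%. In the ER 0 members were higher without overlap and 3 were lower, and in mitochondria 0 were higher and 2 were lower. All 12 ER members and all 8 mitochondrial members had intervals within a 2-fold difference, and so had 38 of the 43 cytosolic members.

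The largest log2 fold change among members of at least 100 RPKM was that of Hspa5. Its level was 408.5 and 307.4 RPKM in WT against 245.5 and 223.1 in Nfat5-/- KCs. Both Nfat5-/- libraries lay below both WT libraries, and the 2 WT libraries lay farther apart than the 2 Nfat5-/- libraries. The log2 fold change was -0.60 (SE 0.15, 95% interval -0.94 to -0.26), with an edgeR adjusted p of 0.105. DESeq2 gave an adjusted p of 0.00598, and edgeR gave 0.0376 with a log2 fold change of -0.79 when WT replicate 2 was left out and 0.337 with one of -0.37 when WT replicate 1 was left out. All of its exon reads were placed at a single site. The ratio of Hspa5 to cytosolic Hspa8 in RPKM was 0.517 and 0.355 in WT and 0.267 and 0.253 in Nfat5-/- KCs. Hspa5 had 11 intron reads in each WT library and 8 and 4 in the Nfat5-/- libraries, too few to compare. It lies on chromosome 2 (34771970 to 34777547).

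The J proteins of the ER had smaller log2 fold changes than Hspa5. Dnajb11, a J protein of the ER lumen, had 39.8 and 43.0 RPKM in WT against 38.4 and 37.8 in Nfat5-/- KCs (log2 fold change -0.11, SE 0.10, adjusted p = 0.681). Dnajc3, also known as p58IPK, had 21.4 and 23.4 RPKM in WT against 20.7 and 19.9 in Nfat5-/- KCs (log2 fold change -0.13, SE 0.10, adjusted p = 0.617). Both were lower in the Nfat5-/- libraries without overlap, with intervals that reached no farther down than -0.36. Without WT replicate 2 the log2 fold change was -0.0545 for Dnajb11 and -0.0679 for Dnajc3. Dnajc10, which reduces disulfide bonds of ER clients, had 24.9 and 28.1 RPKM in WT against 26.0 and 24.2 in Nfat5-/- KCs. Dnajb9 (ERdj4) had 9.49 and 11.2 RPKM in WT against 10.7 and 10.2 in Nfat5-/- KCs. The values of Dnajc10 and Dnajb9 overlapped between genotypes. Dnajb14, a J protein of the ER membrane whose J domain faces the cytosol, had a log2 fold change of -0.14 (SE 0.13) and Dnajc18 one of 0.16 (SE 0.17). The fold change of Hspa5 was not tested against those of the J proteins.

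A list of 26 further ER folding and unfolded protein response genes was set beside the ER members. None of them passed the threshold. At an unadjusted p under 0.05, 14 were lower and 0 were higher, where 6.46% and 8.28% of all tested genes were. The log2 fold change was below 0 in 23 of the 26, as in 6298 of the 12111 tested genes, and in 21 both Nfat5-/- libraries lay below both WT libraries (25.6% of all tested genes did so). The median log2 fold change of the list was -0.29. The list was chosen with earlier results of these data known, so the shares of all tested genes are no independent yardstick for it. Hsp90b1, the HSP90 of the ER, had 291.0 and 254.8 RPKM in WT against 205.6 and 211.2 in Nfat5-/- KCs (log2 fold change -0.38, SE 0.11, adjusted p = 0.166). Calr, the lectin chaperone calreticulin, had 840.5 and 781.0 RPKM in WT against 617.7 and 614.8 in Nfat5-/- KCs (log2 fold change -0.38, SE 0.10, adjusted p = 0.124). Pdia4, a protein disulfide isomerase, had the smallest adjusted p of the list, 0.0949, with 120.7 and 112.5 RPKM in WT against 86.9 and 84.8 in Nfat5-/- KCs. Canx, the membrane-bound partner of calreticulin, had 138.3 and 137.3 RPKM in WT against 133.1 and 132.8 in Nfat5-/- KCs, a log2 fold change of -0.04 (SE 0.10). The stress sensors Ern1 and Eif2ak3 had log2 fold changes of 0.15 (SE 0.15) and 0.00 (SE 0.13). An ERSE lay in the promoters of 7 of the 21 genes of this list with a promoter, among them Calr, Canx and Hsp90b1, and the median of their log2 fold changes was -0.38. The lowest, -2.03 (SE 0.69), was that of Derl3, which was at a low level, 0.774 and 0.547 RPKM in WT against 0.251 and 0.0396 in Nfat5-/- KCs, the next was -0.43 for Pdia6, and the highest was 0.06 for Syvn1. The 14 genes without an ERSE had a median of -0.21, and the difference was not tested. The count of 14 was 4 without WT replicate 1 and 6 without Nfat5-/- replicate 2, while the median stayed between -0.35 and -0.25 under each alternative run. The smooth muscle, suprabasal and melanocyte markers given above differed between the same libraries, and their part in the values of the ER genes was not tested.

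**Figure D2:**
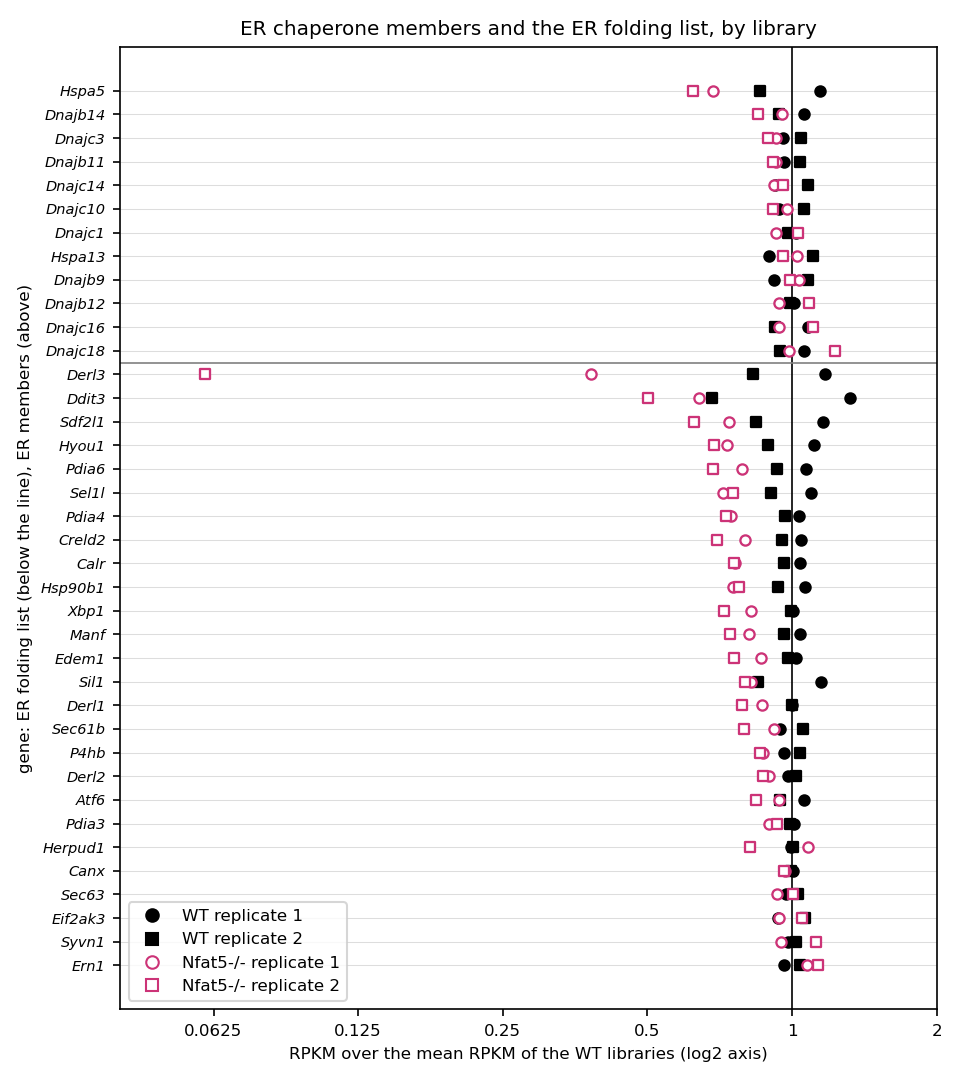
RPKM of each library divided by the mean RPKM of the 2 WT libraries (x axis, log2 scale) for the 12 ER members (above the line) and 26 further ER folding genes (below it), sorted by log2 fold change. The Nfat5-/- libraries (open symbols) of Hspa5 and of 21 listed genes lie to the left of both WT libraries (filled), while those of most ER J proteins mix with WT.

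In mitochondria the HSP70 had lower values in Nfat5-/- KCs, while the chaperonin overlapped between genotypes, and the difference between them was not tested. Hspa9 (mortalin) had 204.3 and 193.3 RPKM in WT against 171.2 and 143.5 in Nfat5-/- KCs, lower without overlap (log2 fold change -0.33, SE 0.11, 95% interval -0.59 to -0.06, adjusted p = 0.237). Without Nfat5-/- replicate 2 its log2 fold change was -0.215 (adjusted p = 0.808). The J protein of HSPA9, Dnaja3, had 23.9 and 19.3 RPKM in WT against 18.9 and 17.7 in Nfat5-/- KCs, also without overlap (log2 fold change -0.23, SE 0.13, adjusted p = 0.473), and without WT replicate 1 its log2 fold change was -0.05. The chaperonin subunit Hspd1 (HSP60) had 140.4 and 147.3 RPKM in WT against 153.2 and 135.3 in Nfat5-/- KCs (log2 fold change 0.02, SE 0.10). Its lid Hspe1 (HSP10) had 140.4 and 131.3 RPKM in WT against 146.0 and 134.7 in Nfat5-/- KCs (log2 fold change 0.06, SE 0.10). Both overlapped between genotypes. The ratio of Hspd1 to Hspe1 in RPKM was 0.9998 and 1.12 in WT and 1.05 and 1.004 in Nfat5-/- KCs for this head-to-head pair with the HSE block shown above. The listed regions of the 2 genes overlap, and no source says that reads were counted by strand, so reads at their starts cannot be told apart. The ratio of Hspa9 to Hspd1 was 1.46 and 1.31 in WT and 1.12 and 1.06 in Nfat5-/- KCs. Of 13 further genes for mitochondrial import and folding, 0 passed and 9 had log2 fold changes below 0, with a median of -0.12. Lonp1, the matrix protease, had 56.5 and 41.7 RPKM in WT against 35.9 and 31.5 in Nfat5-/- KCs (log2 fold change -0.53, SE 0.16, adjusted p = 0.169). Grpel1, the exchange factor of HSPA9, had a log2 fold change of -0.01 (SE 0.10).

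No member of the cytosolic HSP70 machine passed the threshold, and those named for their level or role are given first. Hspa8 had 790.1 and 865.2 RPKM in WT against 918.3 and 882.7 in Nfat5-/- KCs (log2 fold change 0.13, SE 0.10, 95% interval -0.09 to 0.36, adjusted p = 0.588). The 2 Nfat5-/- libraries were above both WT libraries, by less than the gap within WT. The exchange factor Hspa4 had 72.05 to 74.9 RPKM over the 4 libraries, with a log2 fold change of 0.03 (SE 0.10). The second HSP110, Hsph1, whose HSE triple is shown above, had 14.3 and 15.7 RPKM in WT against 14.6 and 14.8 in Nfat5-/- KCs (log2 fold change -0.02, SE 0.11). Of the cytosolic J proteins, Dnaja1 had 28.2 and 33.7 RPKM in WT against 32.9 and 32.2 in Nfat5-/- KCs, and Dnajb1, the J protein best known from heat shock, had 30.3 and 31.9 RPKM in WT against 35.1 and 33.6 in Nfat5-/- KCs (log2 fold change 0.16, SE 0.10, adjusted p = 0.510). Bag1, an exchange factor, was lower without overlap, with 102.9 and 105.3 RPKM in WT against 97.2 and 92.3 in Nfat5-/- KCs (log2 fold change -0.12, SE 0.10, adjusted p = 0.617). Of 14 genes of the HSP90 machine 0 passed, and their median log2 fold change was -0.03. Hsp90ab1 had 620.2 and 651.6 RPKM in WT against 708.3 and 698.3 in Nfat5-/- KCs (log2 fold change 0.16, SE 0.09), and Fkbp4, an immunophilin of HSP90, had a log2 fold change of -0.40 (SE 0.13, adjusted p = 0.209).

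The chaperonin ring stood at a narrow range of levels. The 6 ring subunits with a Cct symbol, Cct2, Cct3, Cct4, Cct5, Cct7 and Cct8, had between 102.2 and 194.1 RPKM, and the highest was 1.58 to 1.71 times the lowest within a library. All of them and the relative Cct6b overlapped between genotypes, with log2 fold changes from -0.09 (Cct7) to 0.16 (Cct6b) and SE of at most 0.19. Of 8 partner genes, the subunit Tcp1 and prefoldin subunits among them, 0 passed, and the median log2 fold change was 0.08.

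Of the cytosolic members with larger log2 fold changes, some had higher and some had lower values in Nfat5-/- KCs, and none passed the threshold. Dnajb4, a J protein of HSP70, had 5.92 and 4.29 RPKM in WT against 7.66 and 8.02 in Nfat5-/- KCs (log2 fold change 0.64, SE 0.18, 95% interval 0.22 to 1.05, adjusted p = 0.150). Hspa2, an HSP70 best known from germ cells, had 15.7 and 15.0 RPKM in WT against 18.1 and 23.4 in Nfat5-/- KCs (log2 fold change 0.45, SE 0.15, adjusted p = 0.220). Bag3, which links HSP70 to HSPB8 and to autophagy, had 42.8 and 43.4 RPKM in WT against 48.5 and 61.2 in Nfat5-/- KCs (log2 fold change 0.36, SE 0.14, adjusted p = 0.280). Its partner Hspb8 had 36.9 and 37.6 RPKM in WT against 42.4 and 44.6 in Nfat5-/- KCs (log2 fold change 0.24, SE 0.10, adjusted p = 0.339). Dnajb5 was at a low level, reaching 2 RPKM on average in its higher group alone, with 1.68 and 1.495 RPKM in WT against 1.98 and 2.12 in Nfat5-/- KCs (log2 fold change 0.38, SE 0.19, adjusted p = 0.403). The lowest log2 fold changes of cytosolic members were those of the J proteins Dnajc9 and Dnajc24, named after their values were seen. Both were smaller in size than the changes of Dnajb4, Hspa2, Bag3 and Dnajb5. At an unadjusted edgeR p under 0.05, 3 cytosolic members were higher and 0 were lower, where 8.28% and 6.46% of all tested genes were. Dnajc9 had 13.3 and 14.15 RPKM in WT against 12.5 and 8.86 in Nfat5-/- KCs (log2 fold change -0.35, SE 0.17, adjusted p = 0.403). Dnajc24 had 7.29 and 8.30 RPKM in WT against 6.59 and 5.78 in Nfat5-/- KCs (log2 fold change -0.32, SE 0.18, adjusted p = 0.459). Leaving out 1 library moved 3 of the higher values by over 1.5 times: without Nfat5-/- replicate 2 the log2 fold change was 0.17 for Bag3 and 0.24 for Hspa2, and without WT replicate 2 it was 0.41 for Dnajb4. For Bag3 and Hspa2 the Nfat5-/- libraries lay farther apart than the WT libraries. The smooth muscle markers Acta2, Tagln and Cnn1 were higher in the same 2 libraries, with the larger sum in Nfat5-/- replicate 2, and their part in these values was not tested. In bulk RNA, more cells of a type and more RNA per cell cannot be told apart.

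Hspb1 held the largest share of the chaperone RNA and varied most within a genotype among the 12 members with a mean of at least 100 RPKM. It had 3779 and 2517 RPKM in WT against 2411 and 3185 in Nfat5-/- KCs, so that WT replicate 1 and Nfat5-/- replicate 2 were high and the other two libraries low. The log2 fold change was -0.16 (SE 0.21, adjusted p = 0.788), and on uniquely placed reads, which were 49.5% of its exon reads, it was -0.04. Hspb1 made up 51.4% and 41.7% of the summed RPKM of all members in WT and 40.1% and 48.6% in Nfat5-/- KCs. The sum itself was 7356 and 6044 RPKM in WT against 6012 and 6551 in Nfat5-/- KCs.

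**Figure D3:**
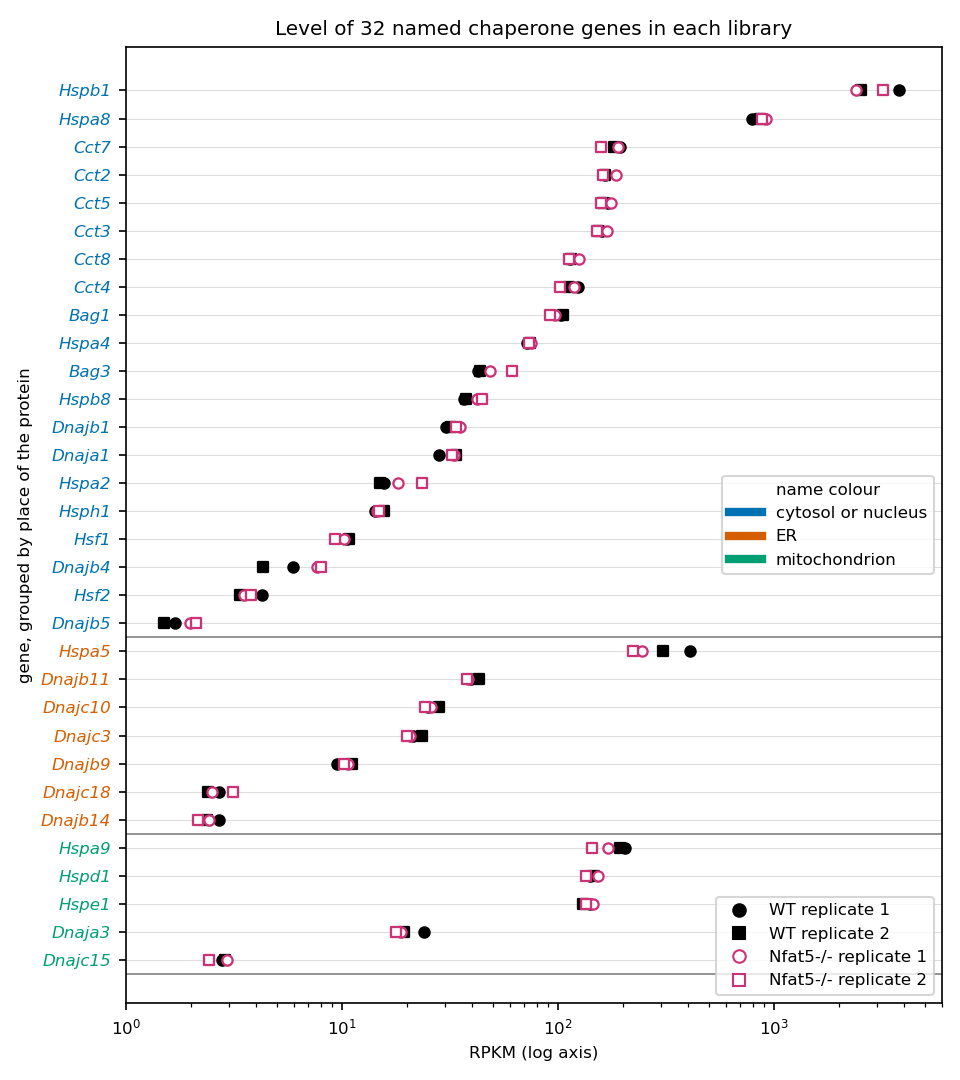
RPKM (x axis, log scale) of the 32 members named by the fixed rule, in each of the 4 libraries, grouped by compartment and sorted by mean level. Levels run from 1.495 RPKM (Dnajb5) to 3779 RPKM (Hspb1), and the 4 symbols of most genes lie close together, while those of Hspa5 and Hspa9, for example, show the genotypes apart and those of Hspb1 the libraries apart within each genotype.

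The heat shock factors were at low levels. Hsf1, the main factor of the heat shock response, had 10.5 and 10.8 RPKM in WT against 10.2 and 9.32 in Nfat5-/- KCs, lower without overlap (log2 fold change -0.11, SE 0.11, adjusted p = 0.699). Hsf2 had 4.27 and 3.37 RPKM in WT against 3.53 and 3.81 in Nfat5-/- KCs (log2 fold change -0.04, SE 0.17). Of the tested members with a promoter, the 15 with an HSE pair had a median log2 fold change of 0.06 and the 42 without had 0.00, the 4 with an HSE triple had 0.04, and the 9 with TonE had 0.03 beside 0.03 for the 48 without. The 2 members with an ERSE are Hspa5 and Dnajc3, at -0.60 and -0.13.

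The largest positive fold change of all members was that of Hsf2bp, a meiotic partner of HSF2, which was named after its values were seen. It rested on few reads, 5 and 3 in WT against 13 and 17 in Nfat5-/- KCs (log2 fold change 1.74, SE 0.63, adjusted p = 0.264).

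Several abundant chaperones share sequence with other places in the genome, so the fold changes were computed again on the exon reads placed at a single site. At least 99% of exon reads were unique in 49 of the 71 tested members, and under 60% in 9. Among these 9 were Hspb1 (49.5% unique), Hspa8 (51.1%), Dnajb6 (56.6%) and Dnaja1 (36.8%), the 4 of highest mean RPKM. Of the 70 members tested on both, the log2 fold changes differed by a median of 0.00 and by at most 0.27, 2 had opposite signs, and 0 passed the threshold on unique reads. For Hspa8 the log2 fold change was 0.16 on unique reads and 0.13 on total reads, and for Hspa5 it was -0.60 on both. Dnajb3 had no unique read and lies within the Ugt1a genes, so its log2 fold change of 1.01 (SE 0.53), named after it was seen, cannot be assigned to it. In all, 29 of the 86 members overlap another listed gene.

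**Figure D4:**
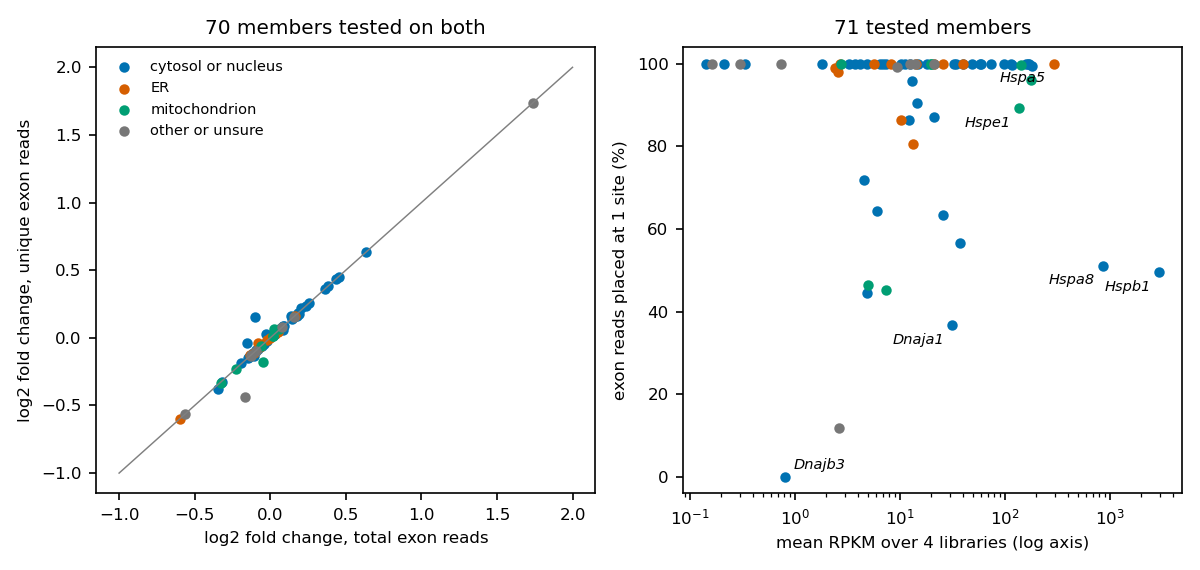
Left, log2 fold change on uniquely placed exon reads (y axis) against that on total exon reads (x axis) for 70 members, with the line of equality; right, percent of exon reads placed at a single site (y axis) against mean RPKM (x axis, log scale) for 71 members, coloured by compartment. The points follow the line, and Hspb1 and Hspa8, the members of highest level, have 49.5% and 51.1% unique reads.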

How the data were processed

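RNA-seq of 4 libraries of tail KCs (2 WT and 2 Nfat5-/-) was analysed from the per-gene tables. The authors aligned the reads to GRCm38 with CLC Genomics Workbench at default settings and deposited counts of reads per gene (total and uniquely placed, in exons and introns; not normalized) together with other values, RPKM, which they scaled to exon length and mapped reads. Reads with several matching sites are thus part of the total counts. Groups and replicate numbers came from the sample titles.

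Total exon reads were filtered with filterByExpr, given TMM factors (0.981 to 1.01) and tested by the quasi-likelihood method of edgeR 4.0.16 (R 4.3.3), with genotype as the sole term, in all 4 libraries. P-values were two-sided and Benjamini-Hochberg adjusted over 12111 genes, with a threshold of 0.05. The SE is the log2 fold change divided by the square root of F, and 95% intervals use the t distribution with the degrees of freedom of the fit (prior 5.58). Exon reads ranged from 15899630 to 23059639 per library, where 3 reads correspond to 0.13 to 0.189 CPM. Counts carry no molecular identifiers, so depth limits cover counting error only. No depth floor was needed for the named members.

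Named members were the members past the threshold, in each compartment the 4 of highest mean RPKM and the 4 of largest absolute change whose higher group averaged 2 RPKM or more, and a list fixed by role, 32 in all. Compartments came from general knowledge of each protein. The members and lists were chosen with earlier results of these data known. Alternatives were uniquely placed exon reads, total gene reads, a replicate block, RLE factors, library totals, no filter, at least 10 reads in every library, DESeq2 1.42.0, limma-trend (limma 3.58.1) on log2(RPKM + 1) and log2(RPKM + 0.1), and each library left out. The numbers do not pair the libraries by any label, and deviations of same-numbered libraries correlated at -0.05. Promoter sequences are those of RefSeq on GRCm38.p6, and exons near them were read from GENCODE M21.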

Additional observations from a re-analysis of the deposited data

How the results depend on the processing

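The 32 named members were refitted under 14 alternatives, which gave 448 values. Of these, 425 kept their direction and their side of the threshold, 5 passed the threshold in the same direction, and 18 changed sign, all of them with a library left out. The members past the threshold numbered 0, but 1 with DESeq2 (Hspa5), 3 without a filter on low counts (Hspa5, Dnajb4 and Hspa2, adjusted p = 1.38e-05, 0.00227 and 0.013), and 0 to 1 with each library left out (Hspa5 without WT replicate 2). All genes past the threshold numbered 175, with 404 by DESeq2, 263 with library totals, 1109 without a filter and 28 to 244 with each library left out. With the replicate number as a block, 0 members and 164 genes passed, Hspa5 had a log2 fold change of -0.59 (adjusted p = 0.094), and no call on a member changed. For the pathway lists, all alternatives were added after the data were seen. Pathway genes past the threshold numbered 0, with 4 by DESeq2, 11 without a filter and 0 to 3 with each library left out, and the ER folding genes that were lower at an unadjusted p numbered 4 to 14 with each library left out. The cause of these shifts was not tested.

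With a library left out, the log2 fold change ran from -0.42 to 0.18 for Hspb1, from -0.21 to 0.15 for Hsf2, from -0.0171 to 0.331 for Dnajc18, from -0.186 to 0.0599 for Dnajc15, from -0.139 to 0.0173 for Dnajc10, from -0.0673 to 0.152 for Dnajb9, from -0.0217 to 0.217 for Dnaja1, from -0.0558 to 0.0918 for Hspd1, from -0.0728 to 0.0493 for Hsph1, from -0.207 to 0.0161 for Cct7, from -0.0312 to 0.0947 for Cct5, from -0.00772 to 0.103 for Cct3 and from -0.0023 to 0.164 for Cct2. For Hspa5 it ran from -0.79 to -0.37, for Hspa9 from -0.44 to -0.215 and for Dnaja3 from -0.38 to -0.0542. It ran from 0.17 to 0.54 for Bag3, from 0.24 to 0.64 for Hspa2 and from 0.41 to 0.895 for Dnajb4. Over all alternatives the median lay between 0.03 and 0.09 for the cytosolic and nuclear members, between -0.10 and -0.01 for the ER members and between -0.11 and 0.04 for the mitochondrial members. With 2 libraries a group, a leave-one-out fit assumes that the lone library varies like the other group.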

Other observations

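The order of the libraries seen for Hspb1, with WT replicate 1 and Nfat5-/- replicate 2 high and the other two low, was also seen in some other genes, picked after their values were seen. Cryab, a small heat shock protein of muscle and lens whose symbol is outside the rule, had 119.7 and 63.8 RPKM in WT against 97.8 and 110.5 in Nfat5-/- KCs, so there WT replicate 2 alone was low. The hemidesmosome genes Itgb4 (452.2 and 345.6 RPKM in WT, 323.3 and 433.3 in Nfat5-/-) and Col17a1 (266.0 and 194.0 RPKM in WT, 182.3 and 257.7 in Nfat5-/-) had the same order as Hspb1. The genotypes overlapped in Cryab, Itgb4 and Col17a1. Itgb4 and Col17a1 are from the list of 9 KC markers, where Krt14 had the same order. In Dsg3 and Dsp WT replicate 1 and Nfat5-/- replicate 2 were also the highest, in reverse order. Krt5, Trp63 and Cdh1 had other orders. Itga6, a further hemidesmosome gene of that list, was lower without overlap, with 159.7 and 135.0 RPKM in WT against 106.8 and 117.5 in Nfat5-/- KCs. With 4 libraries no relation between these genes was tested.

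Of 6 further stress proteins, 0 passed the threshold. Serpinh1, the collagen chaperone HSP47 of the ER, was lower without overlap, with 270.5 and 280.8 RPKM in WT against 229.1 and 224.7 in Nfat5-/- KCs (log2 fold change -0.27, SE 0.10, edgeR adjusted p = 0.254). Hmox1, a marker of oxidative stress, had 32.5 and 32.6 RPKM in WT against 32.3 and 35.0 in Nfat5-/- KCs.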
